A study of Homo sapiens with 12 samples.

Results

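GAB1 and the other adaptors of receptor tyrosine kinases were followed across the 4 groups of a transfection experiment in BT549, a triple-negative breast cancer cell line that the study used as a model of endogenous ERβ2. The genes were taken by name: GAB1, GAB2, IRS1, IRS2, FRS2, SHC1, GRB2, SOS1 and PTPN11. A gene was read by each transcript cluster, the set of probes summarised into 1 value per array, that carried its symbol alone in the probe annotation. Of the 9 genes, 8 were analysed out of 17958 genes in all, and FRS2, the docking protein of FGF receptors, was not analysed here. GAB1 had 2 clusters and the other 7 genes had 1 each. GAB1 was among the genes that the study followed up from these same arrays, so its change on them is no independent evidence of a role for ERβ2. By qPCR the study also reported lower GAB1 after ERβ2 knockdown, in BT549 and in another triple-negative line.

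The groups were control siRNA and siRNA against ERβ2, both with RNA taken at 48 h, and pcDNA3 empty vector (EV) and pcDNA3 with FLAG-tagged ERβ2 cDNA (ERβ2 plasmid), both with RNA taken at 24 h. Each group had 3 biological replicates on Affymetrix Human Gene 1.1 ST arrays, 12 arrays in all. All transfections were transient, and the siRNA set behind the arrays, out of those the study lists, is not named in the labels. Values are log2 values from RMA, and the level of a gene is compared between groups only, since probes of different genes differ in brightness. An array of a culture does not tell apart fewer expressing cells and less RNA per cell.

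Receptor tyrosine kinases phosphorylate themselves when a ligand binds, and adaptor proteins with SH2 or PTB domains then dock on the phosphotyrosines. GRB2 brings SOS1, the exchange factor that loads RAS with GTP, to the membrane. GAB and IRS proteins are large scaffolds that are phosphorylated in turn and recruit PI3 kinase and the phosphatase SHP2, the product of PTPN11. In breast cancer cells these adaptors carry signals of the EGF, HGF and insulin-like growth factor receptors toward growth, survival and motility.

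Values lay between 2.02 and 13.46, with array medians of 5.04 to 5.14, and the mean correlation of an array with the others of its group was at least 0.993. Among markers of the line, the mesenchymal genes VIM and SPARC read 11.99 to 12.32 and 11.68 to 11.79 over the 12 arrays, CDH1 and ESR1 were at or below 4.11 and PGR was at or below 3.70. The epithelial keratins KRT18 and KRT8 read 9.05 to 11.15 and 6.63 to 8.39, and ERBB2 lay between 7.85 and 8.27. Brightness differs between probes of different genes, so the values describe the cells without settling their type. ESR2, the gene of all ERβ isoforms, gave no check of the siRNA label, with a log2 change of −0.02 (standard error, abbreviated SE, 0.09, limma adjusted p = 0.913). Its mean over the 12 arrays was 4.11, under 5, the limit taken here for dim genes, so a fall may not show. The study itself reported lower ERβ2 mRNA by qPCR after the knockdown in BT549. With the ERβ2 plasmid ESR2 was 0.47 higher than with EV (SE 0.10), which did not pass (limma adjusted p = 0.449). Of 6 epithelial markers 3 rose with ERβ2 siRNA, where 18.3% of all genes rose. These were KRT18 by 0.88, KRT8 by 0.78 and CDH1, which is dim, by 0.17. EPCAM, KRT19 and ESRP1 did not pass. The mean level of the 6 went from a range of 5.77 to 5.85 to one of 6.11 to 6.15. Of 5 mesenchymal markers FN1 rose as well, by 0.42, and 4 did not pass, beside the same 18.3% of all genes. Of 5 leukocyte and endothelial markers, CD14 rose by 0.48 and CDH5 and CD3E fell, where 18.3% of all genes rose and 17.5% fell. Both falls were at a dim level, with CDH5 at or below 3.99 and CD3E at or below 3.48 on every array. PTPRC, the pan-leukocyte marker, was at or below 3.60 on every array. The part of these markers in the results below was not tested.

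GAB1 was lower with ERβ2 siRNA, SOS1 was slightly higher, and the other 6 adaptors did not pass the test. The comparison was meant to ask what loss of ERβ2 did to the cells. Rises and falls were called where the limma p, after adjustment over all genes, was 0.1 or less. By this rule 1 of the 8 adaptors fell and 1 rose, against a background of 17.5% of all genes that fell, 18.3% that rose and 35.8% that did either. Their share was below that background, so the counts are no result about the adaptors as a group, and the account below is one of single genes.

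On its main cluster GAB1 read 8.83, 8.72 and 8.64 with control siRNA and 8.15, 8.11 and 8.04 with ERβ2 siRNA. Every ERβ2 siRNA array lay below every control array. The group means were 8.73 ± 0.10 and 8.10 ± 0.06 (SD, n = 3 each). The log2 change of −0.63 (SE 0.07, 95% confidence interval, CI, −0.78 to −0.48, limma adjusted p = 2.5e-04) was a 1.55-fold fall, and 673 genes moved by more. A fall of at least 1.5-fold that also passed the test was reached by 1.26% of all genes. The fold lay close to that limit: leaving out 1 array at a time gave changes from −0.68 to −0.58, and the mean over both GAB1 clusters gave −0.45.

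The plasmid arrays gave the highest values of the main GAB1 cluster. It read 8.97, 8.97 and 8.86 with EV and 8.82, 8.87 and 8.91 with the ERβ2 plasmid. These groups overlapped, and the change of −0.07 (SE 0.06, CI −0.20 to 0.07) did not pass (limma adjusted p = 0.870). In the order of the 4 groups, EV (mean 8.93), ERβ2 plasmid (8.87) and control siRNA (8.73) each overlapped the next, while ERβ2 siRNA (8.10) stood apart from all of them. The effect of the siRNA minus the effect of the plasmid was −0.56 (SE 0.09, limma adjusted p = 5.6e-04 over all 12 arrays), a comparison in which time and reagent differ as well.

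The second GAB1 cluster, which the annotation ties to a cDNA shared with the main cluster and to 1 further sequence, did not follow the main cluster on the plasmid arrays. It read 6.40, 6.56 and 6.46 with the ERβ2 plasmid, above the 6.13, 6.12 and 6.02 with EV. All 3 plasmid arrays thus lay above all EV arrays. The change of 0.38 (SE 0.07, CI 0.23 to 0.54) did not pass in a fit over all 33297 clusters (limma adjusted p = 0.522).

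With ERβ2 siRNA the second cluster read lower, as the main one did, by a smaller amount that did not pass. It read 6.15, 5.88 and 6.28 with control siRNA and 5.87, 5.81 and 5.84 with ERβ2 siRNA. The groups did not overlap, by a margin that rested on the lowest control array, replicate 2. The change of −0.26 (SE 0.10) did not pass (limma adjusted p = 0.157) and reached −0.38 with an adjusted p of 0.0362 without that array. Measured within each array, the change of the main cluster minus that of the second was −0.37 in the siRNA comparison and −0.45 in the plasmid comparison, and neither pair of groups overlapped. The exact two-sided permutation test gave p = 0.1 for both, the smallest p that 3 against 3 arrays allow. The effect of the siRNA minus that of the plasmid was −0.65 on the second cluster (SE 0.13, limma adjusted p = 0.00875 over all clusters).

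**Figure D1:**
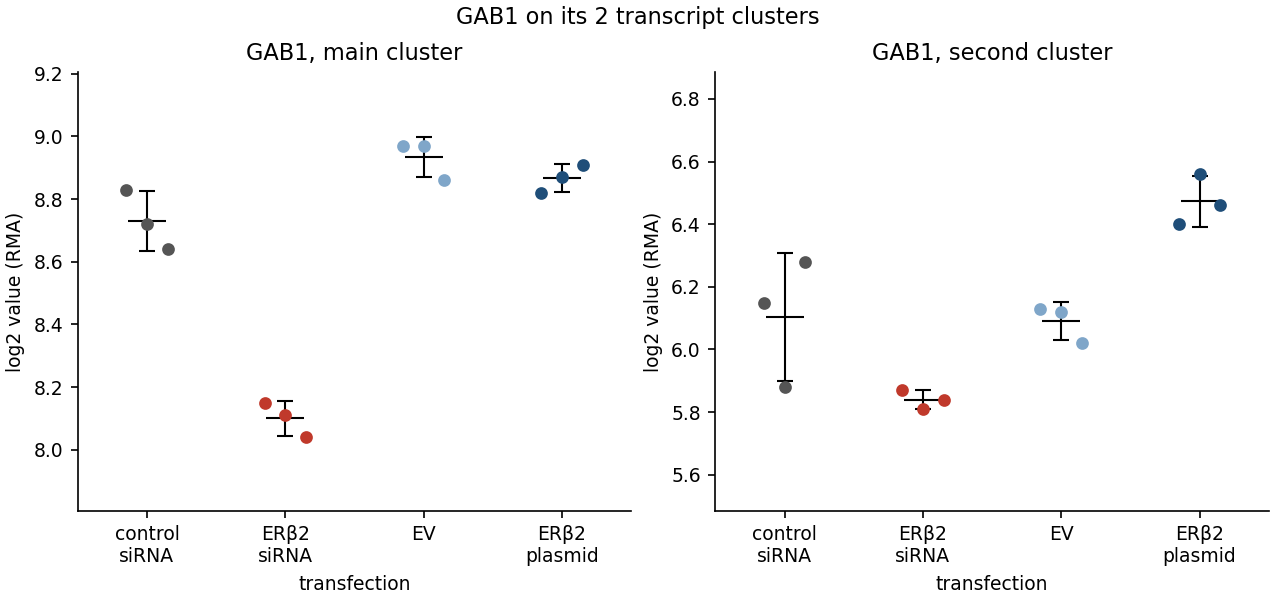
Log2 values (vertical axis) of GAB1 on its 2 transcript clusters by transfection group (horizontal axis), with a point for each array, a bar at the mean and error bars of 1 SD (n = 3). The ERβ2 siRNA arrays are the lowest on both clusters, at 8.04 to 8.15 and 5.81 to 5.87, and the ERβ2 plasmid arrays stand above EV on the second cluster alone.

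GAB2, the closest relative of GAB1 in this set and a docking protein amplified in some breast tumors, did not pass in the siRNA comparison. It read 3.95, 3.83 and 3.81 with control siRNA and 3.78, 3.94 and 3.89 with ERβ2 siRNA. The groups overlapped, with a change of 0.01 (SE 0.07, CI −0.15 to 0.16, limma adjusted p = 0.954). The mean of GAB2 over the 12 arrays, 3.92, lay under the limit of 5 for dim genes, so a change may not show. With EV it read 4.03, 3.98 and 3.92 and with the ERβ2 plasmid 3.99, 3.99 and 3.95, so that all 4 groups overlapped their neighbours in order.

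The insulin receptor substrates, which dock on the insulin and IGF1 receptors, did not pass in the siRNA comparison. IRS1 read 7.75, 7.65 and 7.73 with control siRNA and 7.81, 7.74 and 7.73 with ERβ2 siRNA. Its change was 0.05 (SE 0.06, CI −0.08 to 0.18, limma adjusted p = 0.554), within overlapping groups. IRS2 read 5.86, 5.73 and 5.73 with control siRNA and 5.64, 5.59 and 5.70 with ERβ2 siRNA. Each ERβ2 siRNA array lay below each control array, yet the change of −0.13 (SE 0.06, CI −0.27 to 0.01) did not pass (limma adjusted p = 0.159). IRS2 did pass when the methods' q-values were taken alone, without their fold limit (q = 0.0793).

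SHC1 and GRB2, the small adaptors that couple receptors to SOS1, also did not pass with ERβ2 siRNA. SHC1 read 11.11, 11.12 and 11.04 with control siRNA and 11.16, 11.06 and 11.11 with ERβ2 siRNA, a change of 0.02 (SE 0.06, limma adjusted p = 0.827). GRB2 read 9.24, 9.12 and 9.05 with control siRNA and 9.0, 9.02 and 9.05 with ERβ2 siRNA. These values met at 9.05, and the change of −0.11 (SE 0.06, CI −0.26 to 0.03) did not pass (adjusted p = 0.224).

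SOS1 was the adaptor that rose. It read 8.68, 8.64 and 8.69 with control siRNA and 8.90, 8.93 and 8.97 with ERβ2 siRNA, with no overlap between groups. The change of 0.26 (SE 0.05, CI 0.14 to 0.38, limma adjusted p = 0.00697) was 1.2-fold, below the 1.5-fold limit, and 4041 genes had a larger change. It passed in every setting tried, at an adjusted p of 0.0354 or less. On the plasmid arrays SOS1 read 8.70, 8.95 and 8.72 with EV and 8.68, 8.70 and 8.65 with the ERβ2 plasmid, and EV replicate 2 was the high value. That change of −0.11 (SE 0.08) did not pass (adjusted p = 0.816), and the effect of the siRNA minus that of the plasmid was 0.38 (SE 0.09, limma adjusted p = 0.0105). GAB1 and SOS1 were the 2 of 8 adaptors for which that difference passed, 1 lower and 1 higher, where 26.4% of all genes passed, 11.3% lower and 15% higher.

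PTPN11, the gene of the SHP2 phosphatase that GAB1 recruits, did not pass with ERβ2 siRNA. It read 10.42, 10.32 and 10.38 with control siRNA and 10.29, 10.41 and 10.40 with ERβ2 siRNA. The change of −0.01 (SE 0.06, CI −0.14 to 0.13, limma adjusted p = 0.949) lay within the spread between replicates. Over the 6 adaptors that did not pass, the confidence intervals ran from −0.27 to 0.18 at their widest. The siRNA groups did not overlap for 3 of the 8 adaptors, GAB1, IRS2 and SOS1, where 42.4% of all genes did not overlap.

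**Figure D2:**
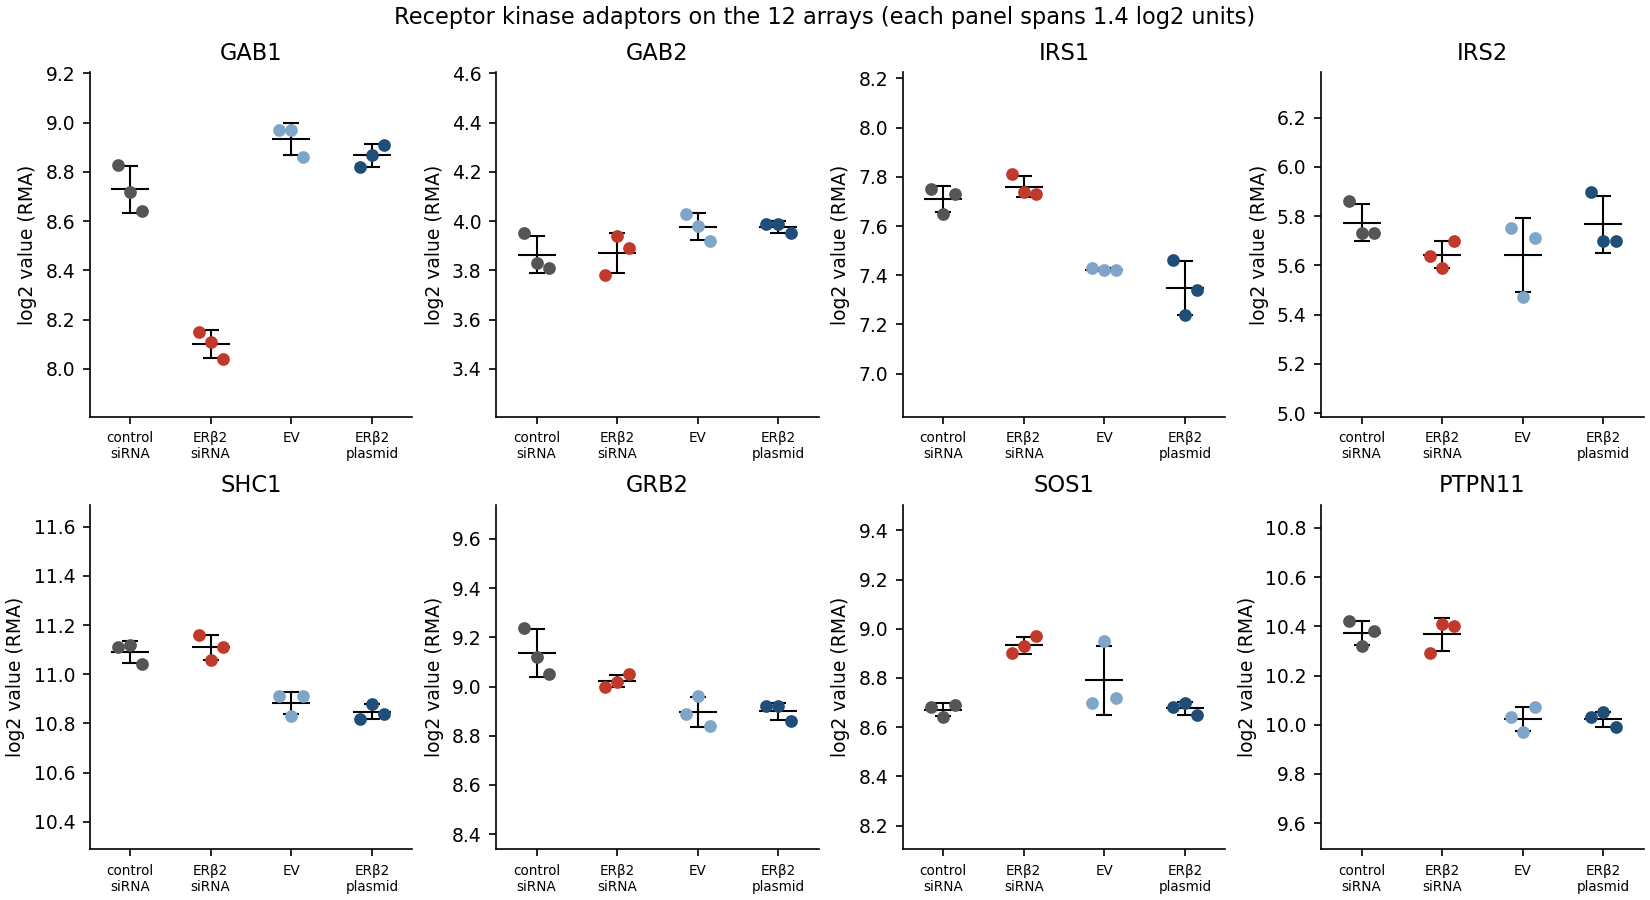
Log2 values (vertical axes, each spanning 1.4 units) of the 8 adaptors by group, with a point for each array, a bar at the mean and error bars of 1 SD (n = 3). GAB1 drops with ERβ2 siRNA to 8.04 to 8.15, SOS1 rises there to 8.90 to 8.97, and IRS1, SHC1, GRB2 and PTPN11 lie lower in the plasmid groups than in the control siRNA group.

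No adaptor passed the test between the ERβ2 plasmid and EV, the comparison that asked what added ERβ2 did. With limma, 0 of 8 passed, 0 had an unadjusted p under 0.05, and the lowest adjusted p was 0.816, while 0.0111% of all genes passed. The methods' t-test called 0 of all 17958 genes, and so 0 of 8 adaptors, with the Benjamini-Hochberg adjustment or as q-values. It therefore adds nothing about the adaptors. Changes ran from −0.11 for SOS1 to 0.12 for IRS2. The groups overlapped for all 8 adaptors on their main clusters, where 12% of all genes did not overlap. The confidence intervals reached from −0.29 to 0.33 at their widest, the lower end from SOS1 and the upper from IRS2. IRS2 read 5.75, 5.47 and 5.71 with EV and 5.90, 5.70 and 5.70 with the ERβ2 plasmid, with EV replicate 2 as its lowest value, and its change had a standard error of 0.09 (adjusted p = 0.845). IRS1 read 7.43, 7.42 and 7.42 with EV and 7.46, 7.24 and 7.34 with the ERβ2 plasmid (change −0.08, SE 0.07, adjusted p = 0.869).

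IRS1, SHC1, GRB2 and PTPN11 had lower values with EV at 24 h than with control siRNA at 48 h, and GAB1 had a higher one. EV and control siRNA are both controls, and time, reagent and the transfected nucleic acid differ between them, so their parts cannot be told apart. In that comparison 4 of the 8 adaptors fell and 1 rose, where 22.4% of all genes fell, 19.2% rose and 41.6% did either. Groups did not overlap for 6 of the 8 adaptors, against 47.2% of all genes. The siRNA comparison and this one share the control siRNA arrays.

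PTPN11 had the largest difference of the 8, with EV values of 10.03, 9.97 and 10.07 and ERβ2 plasmid values of 10.03, 10.05 and 9.99, all below the lowest siRNA array at 10.29. The change from control siRNA to EV was −0.35 (SE 0.06, limma adjusted p = 0.00306). IRS1 differed by −0.29 (SE 0.06, adjusted p = 0.00654), and its groups did not overlap. GRB2 read 8.89, 8.96 and 8.84 with EV and 8.92, 8.92 and 8.86 with the ERβ2 plasmid. Its difference of −0.24 (SE 0.07, limma adjusted p = 0.0322) did not pass without EV replicate 3 (−0.21, adjusted p = 0.102). SHC1 read 10.91, 10.83 and 10.91 with EV and 10.82, 10.88 and 10.84 with the ERβ2 plasmid, and its difference from control siRNA was −0.21 (SE 0.06, adjusted p = 0.0307). Both small adaptors were therefore lower on all plasmid arrays than on any siRNA array. The rise of GAB1 with EV, 0.20 (SE 0.07, limma adjusted p = 0.0588), lost its call without control siRNA replicate 2 (adjusted p = 0.136) or 3 (0.181), and without EV replicate 1 (0.156) or 2 (0.111).

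Interferon-stimulated genes were high on the plasmid arrays at 24 h. All 14 of those examined were higher with EV than with control siRNA, where 19.2% of all genes rose, with a median log2 change of 5.70. Their mean level was 10.5 to 10.6 on the EV arrays against 5.25 to 5.29 on the control siRNA arrays. Between the siRNA groups 2 of the 14 rose, 1 fell and 11 did not pass, with a median change of 0.00, beside 18.3% and 17.5% of all genes. MX2 rose by 0.81 and ISG15 by 0.50, and OAS2 fell by 0.22. Between the plasmid groups 0 of the 14 passed, where 0.0111% of all genes did. Of the 6 epithelial markers 3 were lower with EV, where 22.4% of all genes fell, and the mean level of the 6 was 5.35 to 5.38 on its arrays. Of the 5 mesenchymal markers 3 were higher with EV, where 19.2% of all genes rose. The part of these genes and of those markers in the differences of the adaptors was not tested.

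**Figure D3:**
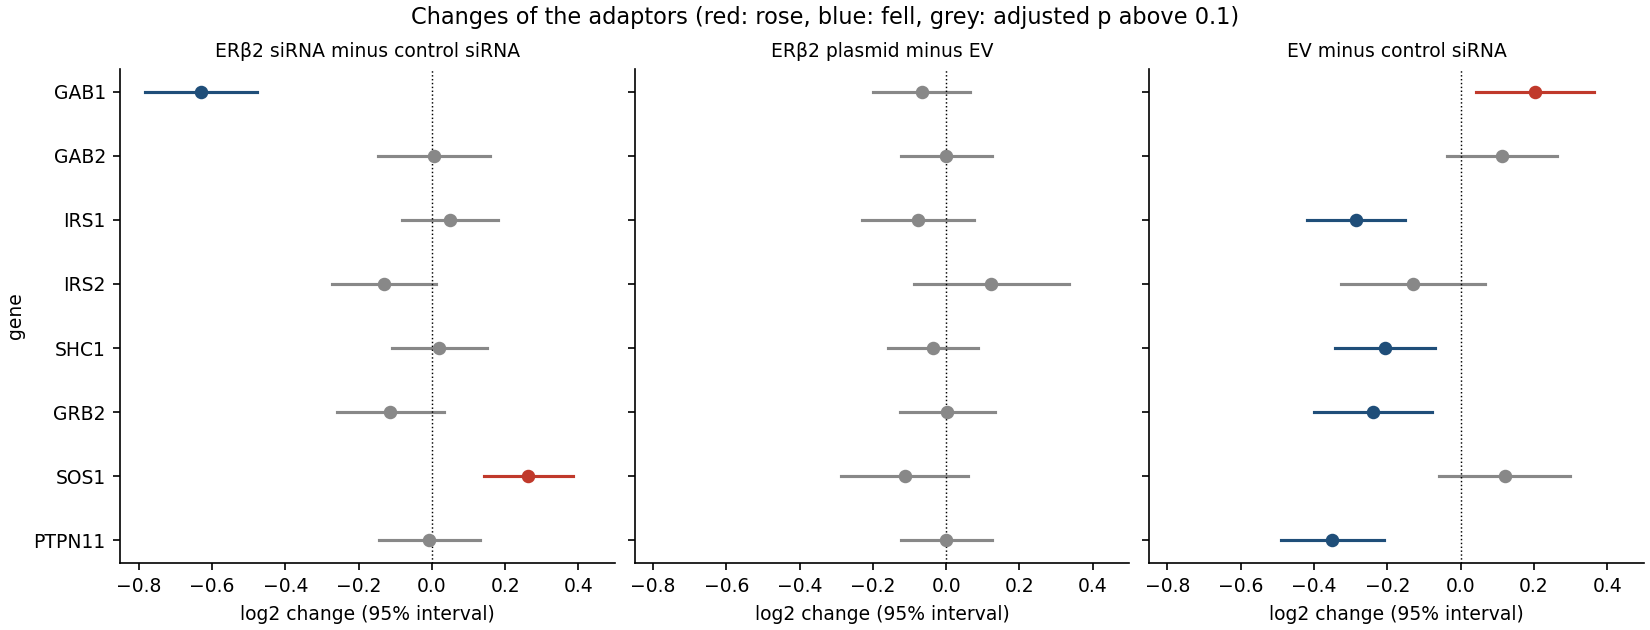
Log2 change (horizontal axis) of each of the 8 adaptors (vertical axis) in 3 comparisons, with 95% confidence intervals from limma (3 arrays against 3). GAB1 (−0.63) and SOS1 (0.26) passed with ERβ2 siRNA, no adaptor passed with the ERβ2 plasmid, and 5 passed between EV and control siRNA.

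The genes around the adaptors were taken from 6 lists, of which 140 genes were analysed. With ERβ2 siRNA 46 of them rose (32.9%), 21 fell (15%) and 73 did not pass, where 18.3% of all genes rose and 17.5% fell. Between the ERβ2 plasmid and EV 0 of the 140 passed, where 0.0111% of all genes did, so that count is no result about these genes. The lists were chosen with earlier results known and are described by counts alone.

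Of 29 related adaptors, 7 fell, 4 rose and 18 did not pass with ERβ2 siRNA, where 17.5% of all genes fell and 18.3% rose. Their median log2 change was −0.09, and that of all genes was −0.03. FRS3, the sister of FRS2 at FGF receptors, fell by 0.38 (SE 0.09, limma adjusted p = 0.0123), and SHC3, a SHC protein best known from neurons, fell by 0.35 (SE 0.07, adjusted p = 0.00791). BCAR1, the p130Cas scaffold of focal adhesions, rose by 0.37 (SE 0.07, adjusted p = 0.00641). Between EV and control siRNA BCAR1 was also higher, by 0.27, and SHC3 also lower, by 0.23. Both passed there, while FRS3 did not (0.07). GAB3, the other close relative of GAB1, had a change of 0.08 (limma adjusted p = 0.424). SHC3 and GAB3 are dim, with means of 4.73 and 4.61 over the 12 arrays.

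Most of the receptors did not pass, and 10 ligands rose. Of 29 receptor tyrosine kinases 9 rose and 3 fell (median 0.00), and of 25 ligands 10 rose and 1 fell (median 0.10), beside a background of 18.3% and 17.5%. NTRK3, a neurotrophin receptor, rose by 1.67 (SE 0.12), PDGFRA, a PDGF receptor, by 0.77 (SE 0.06) and TYRO3, a receptor of GAS6, by 0.75 (SE 0.06). Among the receptors that signal through these adaptors, MET, the HGF receptor for which GAB1 is the main docking protein, rose by 0.51 (SE 0.06, limma adjusted p = 5.1e-04). INSR rose by 0.58 (adjusted p = 3.6e-04), EGFR by 0.35 (adjusted p = 0.00167) and IGF1R by 0.18 (adjusted p = 0.0809). FGFR1, with a change of 0.00 (adjusted p = 0.973), and PDGFRB, with −0.08 (adjusted p = 0.400), did not pass. GAB1 thus fell on the same arrays on which MET, INSR and EGFR rose.

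Most of the named receptors that rose with ERβ2 siRNA were also higher with EV than with control siRNA. NTRK3 was higher there by 1.95, PDGFRA by 0.87, TYRO3 by 0.47 and IGF1R by 0.65, all of which passed. MET was higher by 0.67 (limma adjusted p = 6.1e-05) and INSR by 0.54 (adjusted p = 0.00184), while EGFR did not pass (0.00). The group means of NTRK3 were 6.29 with control siRNA, 7.96 with ERβ2 siRNA, 8.24 with EV and 8.32 with the ERβ2 plasmid. Those of EGFR were 9.11, 9.46, 9.11 and 9.11 in that order. Both comparisons subtract the same control siRNA arrays. A low control group would raise a gene in both, and a high one would lower it in both. Whether the control group did so was not tested, for these receptors or for the other genes of the lists. Among the ligands FGF5 rose by 1.06 with ERβ2 siRNA (SE 0.07), PDGFD by 0.99 (SE 0.08) and KITLG, the ligand of KIT, by 0.93 (SE 0.06). FGF5 was also higher with EV than with control siRNA, by 1.09, and so was KITLG, by 0.40, whereas PDGFD differed there by −0.02 (adjusted p = 0.818).

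Downstream of the adaptors, 9 of 17 genes of the RAS and ERK cascade rose and 2 fell with ERβ2 siRNA (median 0.14), beside 18.3% and 17.5% of all genes. RASA2, a GTPase-activating protein that switches RAS off, rose by 1.58 (SE 0.06). KSR1, a scaffold of the ERK cascade, rose by 0.65 (SE 0.05). RAPGEF1, an exchange factor that acts on RAP1, fell by 1.0 (SE 0.08). RASA2 was higher with EV as well, by 1.23, while KSR1 and RAPGEF1 did not pass between EV and control siRNA.

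Of 18 genes of PI3 kinase and AKT signalling 7 rose, 2 fell and 9 did not pass (median 0.06), beside the same shares of all genes, 18.3% and 17.5%. PIK3R1, the p85α regulatory subunit that binds GAB and IRS proteins, rose by 1.03 (SE 0.06) and was higher with EV by 1.39. INPP5D, the SHIP1 phosphatase best known from blood cells, fell by 0.48 (SE 0.07) at a dim level (mean 4.17 over the 12 arrays). MTOR rose by 0.48 (SE 0.06). Group means with control siRNA and with EV were 4.50 and 3.99 for INPP5D and 9.71 and 10.11 for MTOR. Of 22 negative feedback regulators 7 rose, 6 fell and 9 did not pass (median 0.11), again beside 18.3% and 17.5%. SPRY1, a Sprouty inhibitor of receptor signalling, rose by 0.69 (SE 0.06) and SOCS6, of the suppressor of cytokine signalling family, by 0.65 (SE 0.06), while SOCS7 fell by 0.47 (SE 0.06). Their means with control siRNA and with EV were 7.13 and 7.57 for SPRY1, 8.41 and 8.25 for SOCS6 and 7.17 and 7.07 for SOCS7.

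**Figure D4:**
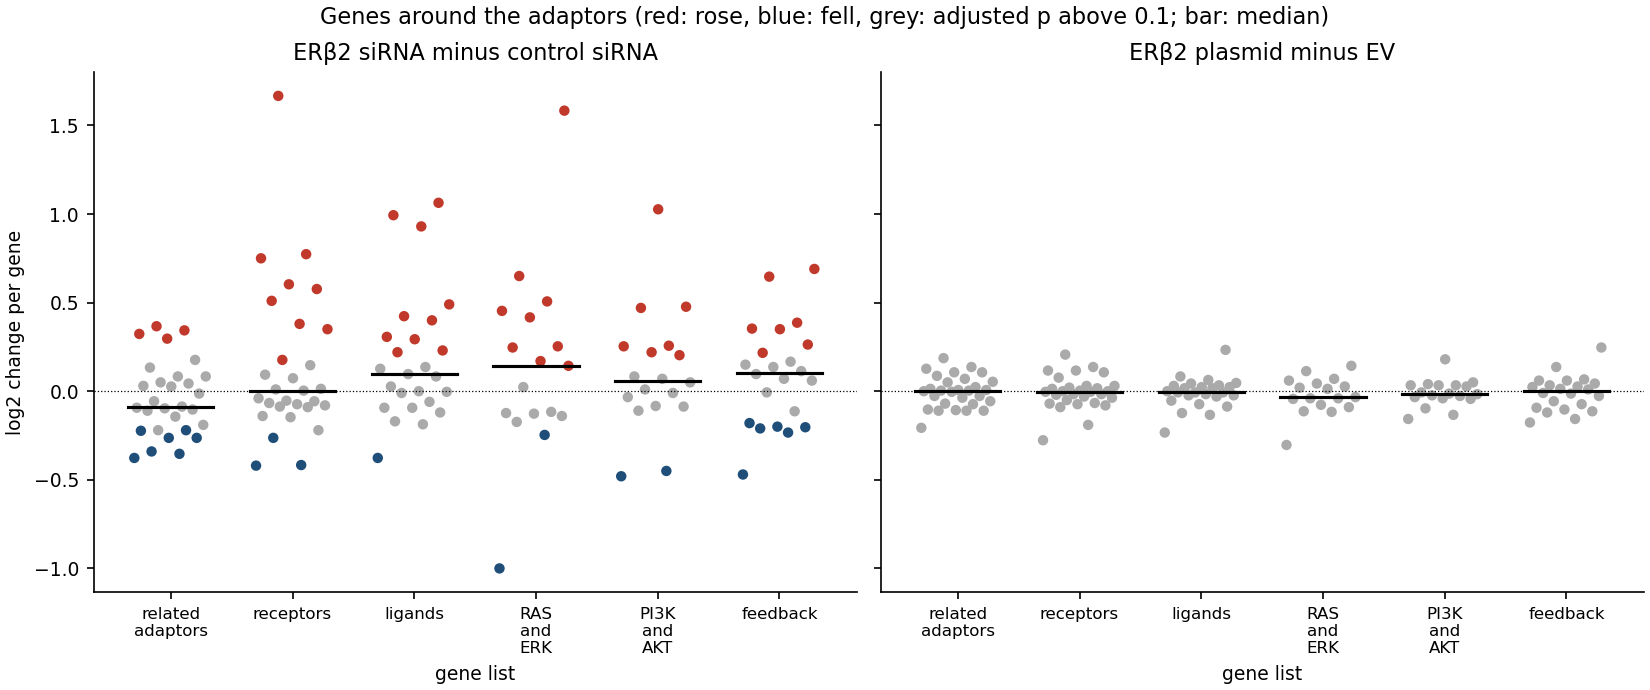
Log2 change (vertical axis) of each gene in 6 lists (horizontal axis) with ERβ2 siRNA against control siRNA (left) and with the ERβ2 plasmid against EV (right), where colour marks genes called by limma (adjusted p up to 0.1) and bars mark medians. With siRNA 46 of 140 genes rose and 21 fell, beside 18.3% and 17.5% of all genes. With the plasmid 0 of 140 passed, beside 0.0111%.

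The genes most like GAB1 across the 12 arrays were found by the root mean square difference between gene-centred log2 values, where 0 is the same pattern. They were PKMYT1 (0.0707), a kinase that holds back entry into mitosis, PRXL2A (0.0714), a peroxiredoxin-like protein, UTP15 (0.0736), which works in ribosomal RNA processing, NMD3 (0.0745), an export adaptor of the large ribosomal subunit, and MCM10 (0.0757), which helps start DNA replication. The median over the 17957 other genes was 0.364. The 5 genes share the arrays and the drop with ERβ2 siRNA on which they were found alike, so the likeness is a description. Among the adaptors GAB2 had the lowest difference, at 0.300 and rank 2983, and IRS1 the highest, at 0.488 and rank 16010. GAB2 is dim, with a mean of 3.92, and did not share the drop, with a change of 0.01 with ERβ2 siRNA. By this measure a gene that hardly varies can rank above one that varies in another way.

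**Figure D5:**
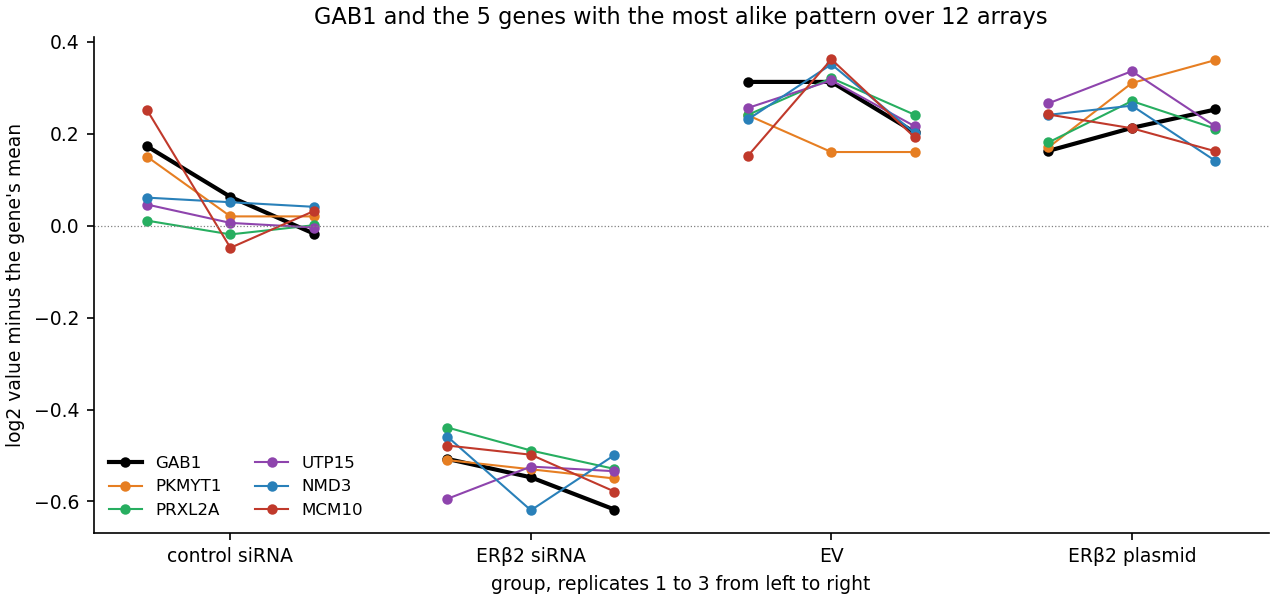
Log2 value minus the mean of the gene (vertical axis) for GAB1 and the 5 genes most like it, on the 12 arrays by group (horizontal axis), where lines join replicates of a group for ease of reading alone. All 6 genes lie lowest on the ERβ2 siRNA arrays, and their differences from GAB1 stay between 0.0707 and 0.0757 (root mean square).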

How the data were processed

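The authors hybridised total RNA of BT549 cells and deposited log2 values to 2 decimals, computed by RMA with Expression Console software (background correction, normalization between arrays, 1 value per transcript cluster). The base was taken as 2, the one RMA gives, and the software version and genome build are not given in the sources used here. Of 33297 clusters 19181 had 1 symbol in the platform annotation, 2055 carried more than 1 and 12061 had no entry in the table used here. Of the gene IDs 19143 matched RefSeq (GRCh38.p14 release, names alone). The cluster with the highest mean over 12 arrays was kept for each of 17958 genes, with no filter on dim genes.

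Comparisons used limma 3.58.1 in R 4.3.3 (lmFit, eBayes, 3 arrays against 3, no replicate block) with Benjamini-Hochberg adjustment over all genes. The difference of effects was fitted over all 12 arrays, and the second GAB1 cluster over all clusters. The t-test and q-values of the study's methods were run as an alternative, and the moderated test was taken as the main one because of the small groups. The procedure was tested on simulated data. Arrays give no read depth, and the 3 arrays per group limit the precision. The members, gene lists and tests were chosen with earlier results of these data known. Named genes were the members, ESR2, up to 3 passing genes with the largest change with ERβ2 siRNA from each list, 6 receptors and the 5 genes most like GAB1. GAB3 was named after its values were seen. The replicate numbers were not taken as pairs, since the study's methods name no pairing. Same-numbered arrays deviated together with r of 0.223, 0.143 and 0.0138 in the siRNA comparison. Between the plasmid groups and between EV and control siRNA r ran from −0.239 to 0.125. Settings varied were the rows kept per gene, a filter (mean of at least 5), 3 normalizations, the methods' t-test, an intensity trend with a robust prior, a limit of 0.05, 1 fit over 12 arrays, the replicate block and leaving out each array.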

Additional observations from a re-analysis of the deposited data

Results flagged for a closer look

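The effect of ERβ2 siRNA minus the effect of the ERβ2 plasmid passed the test for GAB1 (−0.56 on the log2 scale), for its second cluster (−0.65) and for SOS1 (0.38), in limma over all 12 arrays. Time and reagent differ between both effects along with the change in ERβ2, and these cannot be told apart.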

How the results depend on the processing

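The fall of GAB1 with ERβ2 siRNA passed in all 18 other settings (−0.68 to −0.45). The count of adaptors that passed ranged from 2 to 3 of 8 with ERβ2 siRNA and was 0 with the ERβ2 plasmid. It ranged from 4 to 7 between EV and control siRNA and from 2 to 3 for the difference of effects. The calls over all genes moved with the setting too. Between EV and control siRNA 3443 genes rose and 4024 fell in the main fit, and 4476 and 6455 with the methods' q-values. With the replicate block GAB1 had a change of −0.63 in the siRNA comparison and passed. The block turned 1 call of the adaptors, IRS2 in the difference of effects (−0.25, adjusted p = 0.0917 from limma). The rise of GAB1 with EV missed the threshold with all clusters in the fit (0.20), with the mean over its clusters (0.10), with arrays centred on their median (0.19), with the methods' t-test after Benjamini-Hochberg adjustment (0.20) and at a limit of 0.05 (0.20), and ranged from 0.16 to 0.25 with an array left out. With the mean over clusters GAB1 turned to 0.16 with the ERβ2 plasmid, as the second cluster enters that mean. The second cluster passed with ERβ2 siRNA without dim genes (−0.26) and in 1 fit over 12 arrays (−0.26), and ranged from −0.38 to −0.18 with an array left out and, with EV, from −0.125 to 0.075. Values near 0 changed sign: PTPN11 with ERβ2 siRNA (0.0021 after cyclic loess, 0.047 with centred arrays) and in the difference of effects (0.00047 and 0.023). With an array left out PTPN11 ranged from −0.033 to 0.032 in both, GAB2 from −0.028 to 0.052 in both, SHC1 with ERβ2 siRNA from −0.005 to 0.045 and GRB2 with the plasmid from −0.025 to 0.035. Over all genes, 3279 rose and 3150 fell with ERβ2 siRNA, and 4035 and 1968 with arrays centred on their median. GAB2 gave no value without dim genes, since its mean lies under the limit. The cause of these shifts was not tested. The precision is limited by 3 arrays per group.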
